A study of Mus musculus with 4 samples.

Results

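The genes described here are 43 transcription factors that mark regions of the embryonic brain. They were taken by gene symbol from a list that sorts them, by where they are best known, into 8 factors of the cortex, 7 of the cortical hem and roof plate, 8 of the ventral telencephalon, 12 of the diencephalon (with the hypothalamus) and 8 of the midbrain. Of the 21767 genes listed in either deposited table, 40 of these 43 were present: 37 in both tables and 3 in 1 table. Irx2, Pax3 and Pax7 were in neither. The values are RNA sequencing counts from cortex dissected from the brains of C57BL/6 mouse embryos aged 15 days (E15). There were 2 libraries of the conditional knockout genotype Prdm16cKO, called cKO 1 and cKO 2, and 1 library of the Prdm16fl/fl genotype, called floxed, whose Prdm16 alleles carry loxP sites. The labels give neither the Cre driver nor the deleted exon, and they list 2 samples of each genotype without saying which sample gave which library. The design text speaks of triplicates, and the title of 1 sample in each genotype holds the unexplained word Blood. The labels do not say whether libraries came from separate embryos, and the spread that the p-values measure is that among these libraries, possibly a technical one.

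Regional patterning factors are DNA-binding proteins that turn on in restricted territories of the neural tube and give the cells there their identity. In the telencephalon, factors of the dorsal side specify cortex, those of the medial edge mark the hem, a source of Wnt and BMP signals, and those of the ventral side specify the ganglionic eminences that produce striatal neurons and interneurons. The diencephalon and midbrain use other sets. In a bulk sample the level of such a factor depends on how many cells of each territory were dissected as well as on how much RNA each cell holds, and these cannot be told apart.

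Levels below are counts scaled to the library total (CPM), from library totals of 19518174 (cKO 1), 18581791 (cKO 2) and 17841685 (floxed). Fold differences are ratios of counts after TMM scaling, each with an exact (Clopper-Pearson) 95% interval that covers counting error only, and a gene is said to lie beyond counting error when that interval leaves out 1. Prdm16, which encodes the deleted zinc-finger regulator, had 34.6 and 24.1 CPM in cKO 1 and cKO 2, against 30.2 CPM in floxed, so the library labelled cKO 1 did not have less Prdm16 RNA than the floxed library. All 10 markers fixed for cortex, among them Tbr1, Neurod2 and Neurod6, were present, with summed levels of 3656 and 3456 CPM in cKO and 3496 CPM in floxed. The libraries labelled cKO differed in markers of tissues other than cortex: 11 meningeal markers summed to 769 CPM in cKO 1 and 26.2 CPM in cKO 2, against 479 CPM in floxed, and 8 choroid plexus markers to 1101 and 336 CPM, against 1118 CPM. The meningeal transporter gene Slc6a13 had 1 count in cKO 2. The 7 erythroid markers summed to 1589 and 1281 CPM in cKO and 1748 CPM in floxed. All 12 markers of the ventral telencephalon, some of which interneurons that migrate into the cortex also express, were present in the 3 libraries (576 and 514 CPM in cKO, 642 CPM in floxed).

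**Figure D1:**
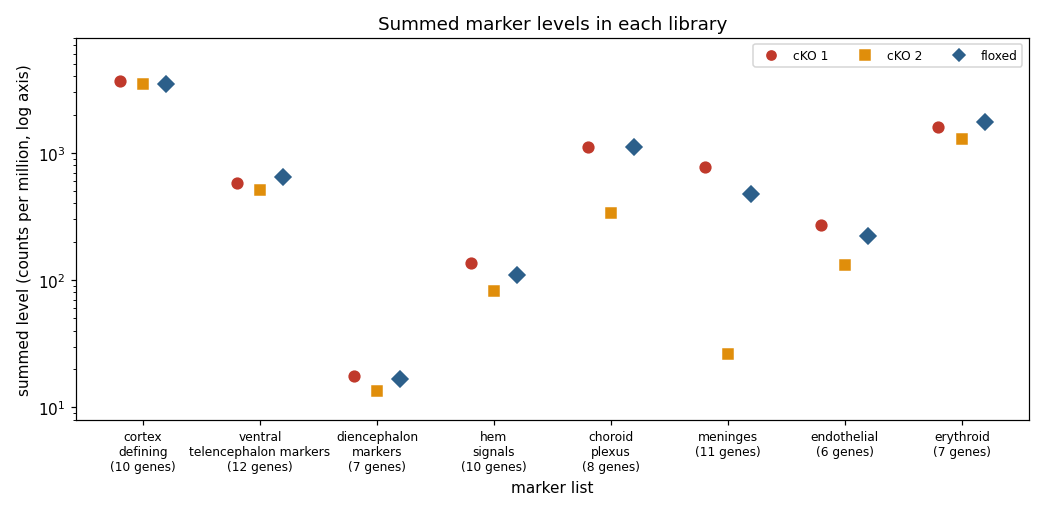
Summed level of each marker list (CPM, log axis) in cKO 1, cKO 2 and floxed, with the number of genes summed under each list. The meningeal sum was 26.2 CPM in cKO 2, against 769 CPM in cKO 1 and 479 CPM in floxed, while the cortex sums lay between 3456 and 3656 CPM.

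No patterning factor passed the test across all genes. At the threshold of 0.05 on the Benjamini-Hochberg adjusted p, edgeR's quasi-likelihood fit over 16725 genes called 0 (0.00%). Before adjustment 217 genes (1.30%) had a p under 0.05. Of the 43 factors, 34 passed the filter on low counts, and 0 of them were called, with an adjusted p of 1 for each and 7 at an unadjusted p under 0.05. These 7 include Dbx1 and Bsx, which had 0 counts in floxed and passed the filter through the cKO libraries alone. The 1.30% of all tested genes was not recomputed without such genes. DESeq2 and limma-voom also called 0 of the 34, with 5 at an unadjusted p under 0.05 by each tool. With 2 libraries against 1, the design left 1 residual degree of freedom. Counted by direction, 7 of the 34 factors were higher in both cKO libraries than in floxed beyond counting error (20.6%, against 6.30% of all tested genes), 2 were lower in both (5.88%, against 6.37%), and 5 lay beyond counting error in opposite directions (14.7%, against 6.15%). Of the 7 higher in both, Dbx1 and Bsx passed the filter through the cKO libraries alone. Without these, 5 of 32 factors were higher in both (15.6%). The 6.30% of all tested genes was not recomputed without such genes and was not matched for count depth. The 43 factors were chosen with earlier results of these data known. The shares by direction, and those by size below, are therefore descriptions and not a test of the factors. By size, Dmrta1, Zic4, Dbx1 and Bsx were more than 2-fold higher in cKO 1 (4 factors, against 1.98% of all tested genes) and Otp, Sim1 and Nkx2-2 more than 2-fold lower (3 factors, against 1.54%). In cKO 2, Dmrta1, Dbx1 and Bsx were more than 2-fold higher (3 factors, against 1.61%), and Msx1, Msx2 and Lmx1b more than 2-fold lower (3 factors, against 6.45%). Msx2, with 9 and 5 counts in cKO 1 and cKO 2 and 15 in floxed, reached the filter's minimum count of 10 in floxed alone. These counts by size include Dbx1, Bsx and Msx2, and the shares were not recomputed without genes that passed through 1 group only. Both cKO libraries were set against the same floxed library.

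**Figure D2:**
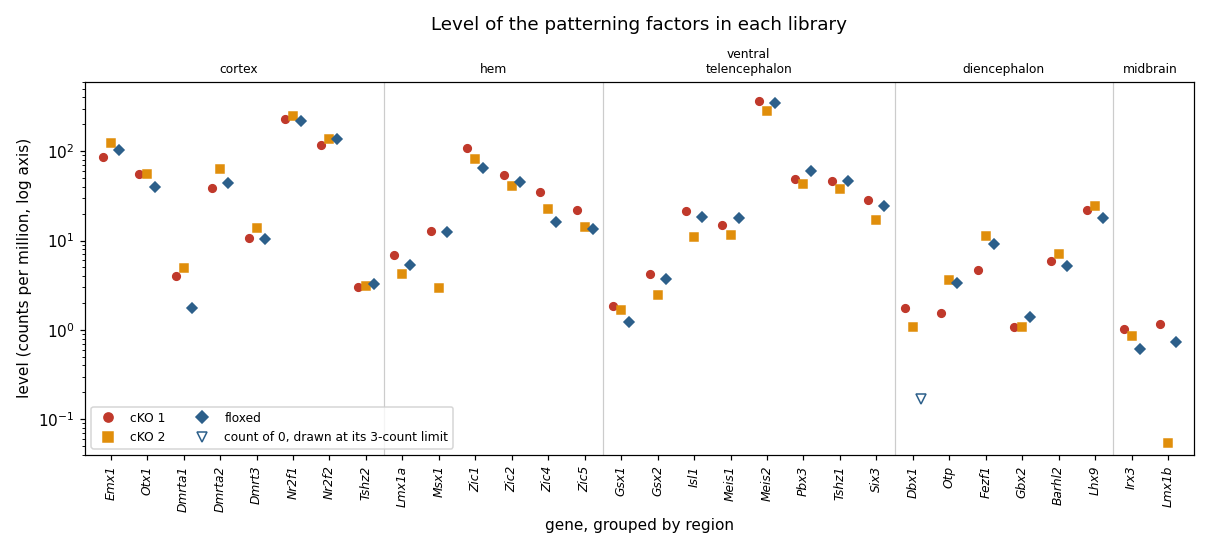
Level in CPM (log axis) of the 30 factors with at least 1 CPM in any library, grouped by region, in cKO 1, cKO 2 and floxed. The open triangle marks the count of 0 for Dbx1 in floxed, drawn at the limit that a count of 0 allows (0.168 CPM), where the cKO libraries had 1.74 and 1.08 CPM.

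The factors with the largest difference were Dbx1 and Bsx, homeobox genes that gave reads in both cKO libraries and none in floxed. Dbx1 (ENSMUSG00000030507, GRCm38 chr7:49631499-49636849, minus strand) marks progenitors at borders of the pallium and in the hypothalamus. It had 34 and 20 counts in cKO 1 and cKO 2, or 1.74 and 1.08 CPM, against 0 in floxed, which allows up to 0.168 CPM. Against that limit of 3 counts in the floxed library its CPM, without TMM scaling, was at least 10.4-fold higher in cKO 1 and at least 6.40-fold higher in cKO 2. These bounds leave out the counting error of the cKO counts: the lower exact 95% limits of the TMM-scaled count ratios were 7.93 and 4.88. Bsx (ENSMUSG00000054360, chr9:40874127-40880057, plus strand), a brain-specific factor of hypothalamic neurons and the pineal gland, had 18 and 16 counts in cKO, or 0.922 and 0.861 CPM, against 0 in floxed, and on the same CPM basis was at least 5.48-fold and 5.12-fold higher, with lower exact limits of 3.996 and 3.81. Their levels in cKO averaged 1.41 ± 0.471 CPM for Dbx1 and 0.892 ± 0.0432 CPM for Bsx (SD, n = 2). Among all tested genes, 4 (0.0239%) had at least 10 counts in both cKO libraries and 0 in floxed, and Dbx1 and Bsx were 2 of these. That count is a description, since the members were chosen with earlier results of these data known. Neither passed edgeR's test (adjusted p = 1). In the authors' deposited tables both genes were marked significant against floxed in both cKO libraries, with adjusted p-values of 6.67e-08 and 2.88e-05 for Dbx1 and 0.000183 and 0.000242 for Bsx, from 1 library against 1 library.

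The stretch around the start site of each gene is shown because these genes had reads in the cKO libraries only. Each covers 250 bases before and 50 after the RefSeq start (GRCm38.p6), written 5′ to 3′ on the gene's strand, with capitals marking promoter motifs sought on both strands. The TATA box was spelled TATAAA, and the CCAAT box was sought by the letters of its name. For the GC box, the binding site of Sp1-type factors, the letters were GGGCGG.
Dbx1 (chr7:49636786-49637085, minus strand): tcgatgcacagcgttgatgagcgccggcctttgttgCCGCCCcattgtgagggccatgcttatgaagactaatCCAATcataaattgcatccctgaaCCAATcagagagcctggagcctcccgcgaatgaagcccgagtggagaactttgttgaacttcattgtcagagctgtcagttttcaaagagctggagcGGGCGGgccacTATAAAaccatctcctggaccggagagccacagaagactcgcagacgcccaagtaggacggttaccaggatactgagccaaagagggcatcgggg
Bsx (chr9:40873877-40874176, plus strand): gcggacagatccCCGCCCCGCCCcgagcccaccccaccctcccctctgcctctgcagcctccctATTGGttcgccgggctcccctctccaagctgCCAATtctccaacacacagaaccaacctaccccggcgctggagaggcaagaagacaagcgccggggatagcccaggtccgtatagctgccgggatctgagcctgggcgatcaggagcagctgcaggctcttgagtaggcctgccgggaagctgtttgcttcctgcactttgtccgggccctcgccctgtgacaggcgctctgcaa
Dbx1 had 1 TATA box, 2 CCAAT boxes and 2 GC boxes in this window and 15 CpG dinucleotides. Bsx had 2 CCAAT boxes, 2 overlapping GC boxes, no TATA box and 17 CpG dinucleotides. Among 32841 RefSeq promoters of this length a TATA box was found in 13.6%, a CCAAT box in 37.4% and a GC box in 35.7%. Of the 43 factors, 36 had a promoter in the table, 40 stretches in all, and these motifs were in 5, 20 and 24 of the 40. The median stretch held 17 CpG dinucleotides, against 7 over all promoters. These matches describe the letters alone.

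The ZIC genes encode zinc-finger proteins of the dorsal midline, the septum, the hem and the meninges, and they lie in head-to-head pairs. Zic1 (chr9:91358058-91365810, minus strand) had 109.6 and 81.5 CPM in cKO 1 and cKO 2, against 64.9 CPM in floxed. Both cKO libraries lay above floxed, by 1.68-fold (1.56 to 1.81) and 1.29-fold (1.20 to 1.40). Its neighbour Zic4 (chr9:91362413-91389348, plus strand) had 35.0 and 22.5 CPM in cKO, against 15.97 CPM in floxed, and was 2.18-fold (1.89 to 2.51) and 1.45-fold (1.25 to 1.70) higher. The fitted log2 folds were 0.57 for Zic1 (SE 0.20) and 0.86 for Zic4 (SE 0.30) (edgeR, adjusted p = 1 for each). The other pair, Zic5 and Zic2 on chromosome 14, 9757 bases apart, stood higher in cKO 1 only. Zic5 had 22.2 and 14.1 CPM in cKO, against 13.6 CPM in floxed. Zic2 had 53.7 and 41.1 CPM in cKO, against 45.0 CPM in floxed. Zic5 was 1.62-fold higher in cKO 1 (1.38 to 1.90) and at 1.07-fold in cKO 2 (0.892 to 1.28), and Zic2 1.19-fold higher (1.08 to 1.30) and at 0.942-fold (0.852 to 1.04). Each of these 4 ZIC genes was higher in cKO 1 than in cKO 2. Meningeal markers had the same order between the cKO libraries, with a sum of 769 CPM in cKO 1 and 26.2 CPM in cKO 2, against 479 CPM in floxed. Their part in the ZIC values was not tested.

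The start-site stretches of Zic1 and Zic4 are shown as those of neighbouring genes that were both higher in the cKO libraries, with the same motifs in capitals. The RefSeq start used for Zic4 lies inside the gene as the deposited tables place it, downstream of the first position there.
Zic1 (chr9:91365719-91366018, minus strand): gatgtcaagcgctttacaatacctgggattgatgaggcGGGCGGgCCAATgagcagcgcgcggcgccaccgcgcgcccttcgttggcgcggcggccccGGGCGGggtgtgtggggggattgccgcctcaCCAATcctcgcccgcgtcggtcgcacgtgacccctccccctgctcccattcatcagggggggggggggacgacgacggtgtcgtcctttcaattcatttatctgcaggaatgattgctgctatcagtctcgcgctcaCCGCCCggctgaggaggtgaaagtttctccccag
Zic4 (chr9:91368722-91369021, plus strand): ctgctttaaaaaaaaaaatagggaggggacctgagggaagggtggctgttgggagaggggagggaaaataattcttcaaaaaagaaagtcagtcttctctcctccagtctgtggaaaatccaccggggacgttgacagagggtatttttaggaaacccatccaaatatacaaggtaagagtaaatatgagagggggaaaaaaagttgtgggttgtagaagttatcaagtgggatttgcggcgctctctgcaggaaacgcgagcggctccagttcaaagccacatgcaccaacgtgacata
Zic1 had 31 CpG dinucleotides, 2 CCAAT boxes and 3 GC boxes, and Zic4 had 8 CpG dinucleotides and none of these motifs. The exons of Zic1 and Zic4 share 60 bases on opposite strands in GENCODE M21, 1.05% of the exon bases of Zic1 and 0.581% of those of Zic4. The library kit does not mark strand, so reads there cannot be assigned.

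None of the remaining hem and roof plate factors was higher in both cKO libraries beyond counting error. Lmx1a, a LIM homeobox gene required for the roof plate and hem, had 6.87 and 4.25 CPM in cKO 1 and cKO 2, against 5.32 CPM in floxed, and both intervals held 1. Msx1, a homeobox gene that responds to BMP signals, had 12.8 and 2.91 CPM in cKO, against 12.5 CPM in floxed. cKO 1 and floxed could not be separated (1.02-fold, 0.847 to 1.23), and cKO 2 stood below both, at 0.240 of floxed (0.175 to 0.324). Msx2, its relative, had 9 and 5 counts in cKO, against 15 in floxed. Choroid plexus and meningeal sums were also lowest in cKO 2, and their part in the Msx1 value was not tested. Of 11 signals listed for the hem, 10 were in both tables, with sums of 136 and 81.7 CPM in cKO and 109 CPM in floxed. Beyond counting error 1 was higher in both cKO libraries (against 6.30% of all tested genes), 3 went in opposite directions (against 6.15%) and 6 did neither. The one higher in both was Rspo3, a secreted enhancer of Wnt signalling, with ratios of 1.30 (1.15 to 1.47) and 1.34 (1.18 to 1.52). The 3 with opposite directions encode BMP ligands: Bmp4, with ratios of 1.43 (1.01 to 2.03) and 0.141 (0.0582 to 0.298), Bmp6, with 1.28 (1.07 to 1.54) and 0.143 (0.0939 to 0.210), and Bmp7, with 1.29 (1.15 to 1.45) and 0.337 (0.282 to 0.402). Wnt3a, a Wnt ligand of the hem, had ratios whose intervals held 1 in both cKO libraries, 0.986 (0.681 to 1.43) and 0.939 (0.639 to 1.38). Set against cKO 1, cKO 2 was lower beyond counting error for 5 of the 10 signals (against 21.8% of all tested genes) and higher for 0 (against 22.1%).

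Of the 8 cortical factors, 2 were higher in both cKO libraries beyond counting error (against 6.30% of all tested genes), 2 went in opposite directions (against 6.15%) and 4 did neither. Otx1, a homeobox gene of cortical progenitors and deep-layer neurons, had 55.7 and 56.2 CPM in cKO 1 and cKO 2, against 40.2 CPM in floxed. The cKO libraries lay close together (56.0 ± 0.350 CPM, SD, n = 2) and apart from floxed, by 1.38-fold (1.25 to 1.52) and 1.44-fold (1.31 to 1.59). The fitted log2 fold was 0.50 (SE 0.13, adjusted p = 1 by edgeR). Dmrta1, a doublesex-related factor of pallial progenitors, was low throughout, with 3.996 and 4.90 CPM in cKO, against 1.74 CPM in floxed. Its counts were 78 and 91, against 31, and the ratios 2.29 (1.49 to 3.59) and 2.90 (1.91 to 4.52). The authors' deposited tables marked Dmrta1 significant in both cKO libraries (log2 folds 1.20 and 1.49). Of the other factors, besides Dbx1 and Bsx, they marked Zic4 and Otp in cKO 1 alone and Msx1, Msx2 and Lmx1b in cKO 2 alone. With Dbx1 and Bsx, they marked 5 of the 39 factors listed for cKO 1, against 2.35% of all genes listed there. For cKO 2 they marked 6 of 38, against 6.72%.

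The relatives of Dmrta1 differed from it. Dmrta2, which with Dmrt3 and Emx2 sets the medial and caudal identity of the pallium, had 38.4 and 63.3 CPM in cKO 1 and cKO 2, against 44.3 CPM in floxed. The cKO libraries lay on either side of floxed, at 0.863-fold (0.780 to 0.955) and 1.47-fold (1.34 to 1.61). Dmrt3 had 10.8 and 13.8 CPM in cKO, against 10.3 CPM in floxed, and was beyond counting error in cKO 2 alone (1.38-fold, 1.14 to 1.68). Emx1, a homeobox gene that marks the pallium, was split as Dmrta2 was, with 85.2 and 124 CPM in cKO, against 104 CPM in floxed. Its ratios were 0.818 (0.765 to 0.874) and 1.24 (1.16 to 1.32), and the cKO mean of 105 ± 27.7 CPM (SD, n = 2) held the floxed level within its spread.

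The COUP-TF nuclear receptor genes Nr2f1 and Nr2f2, which carry caudal and ventral identity in the cortex, were among the most abundant factors. Nr2f1 had 228 and 249 CPM in cKO 1 and cKO 2, against 220 CPM in floxed, with a ratio of 1.17 in cKO 2 (1.12 to 1.22) and one that held 1 in cKO 1. Nr2f2 had 118 and 136 CPM in cKO, against 138 CPM in floxed, with a ratio of 0.853 in cKO 1 (0.805 to 0.903) and one that held 1 in cKO 2. In each gene the libraries labelled cKO disagreed on whether the level departed from floxed. Tshz2, a zinc-finger gene of deep-layer neurons, had 3.02 and 3.07 CPM in cKO, against 3.25 CPM in floxed, and 65.2% of its exon bases overlap the noncoding gene Gm26883 on the other strand. Per kilobase of exon, the level in floxed was highest for Emx1 (47.5 CPM per kb), Nr2f1 (43.2) and Meis2 (29.1) among the 43 factors. The list places Meis2 in the ventral telencephalon, and the cells that gave its reads were not identified.

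**Figure D3:**
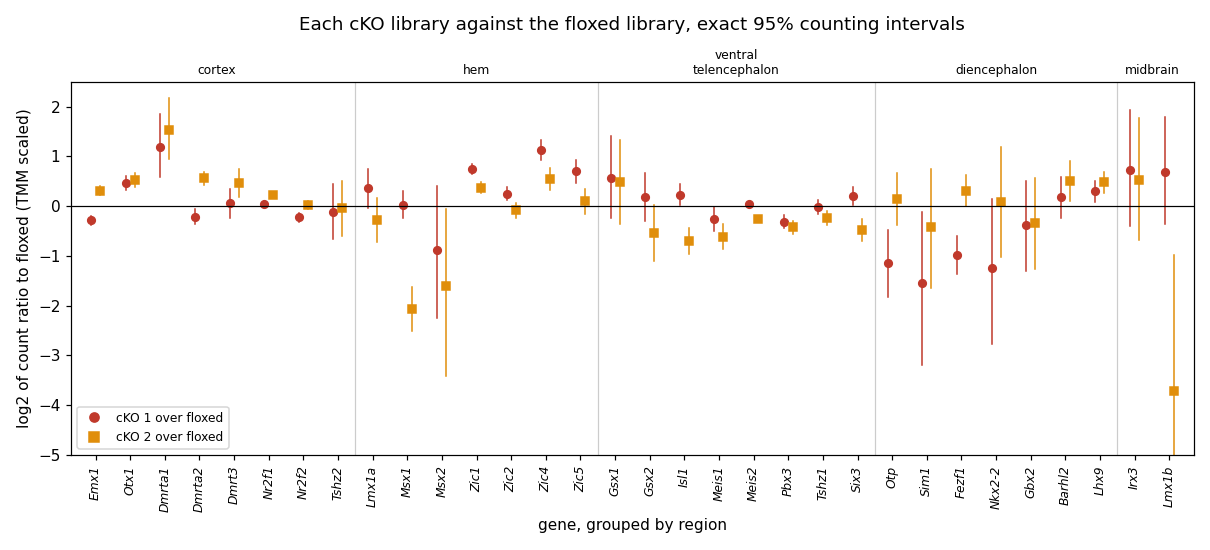
Log2 of the count ratio to floxed (vertical axis, TMM scaled) for 32 factors with reads in floxed that passed the filter, grouped by region, with exact 95% counting intervals. Otx1, Dmrta1, Zic1, Zic4 and Lhx9 lie above 0 in both cKO libraries, and Meis1 and Pbx3 below 0 in both. The interval of Lmx1b in cKO 2 runs below the axis.

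In the ventral telencephalon group, Pbx3 and Meis1 were lower in both cKO libraries. Both encode TALE homeodomain proteins, cofactors that bind DNA with other homeodomain factors in striatal and olfactory bulb lineages. Pbx3 had 48.5 and 43.4 CPM in cKO 1 and cKO 2, against 60.0 CPM in floxed. The cKO libraries lay close together, at 0.804-fold (0.736 to 0.878) and 0.745-fold (0.679 to 0.817), and the fitted log2 fold was -0.37 (SE 0.13, adjusted p = 1 by edgeR). Meis1 had 15.1 and 11.4 CPM in cKO, against 18.0 CPM in floxed, with ratios of 0.835 (0.711 to 0.981) and 0.653 (0.547 to 0.779). Of its exon bases 9.77% also belong to Gm37818 on the same strand. The paralog Meis2, the most abundant of the 43 by counts, did not go the same way in cKO 1: it had 362 and 283 CPM in cKO, against 350 CPM in floxed, with ratios of 1.03 (0.994 to 1.06) and 0.833 (0.803 to 0.865).

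Factors of the striatal lineage were divided between the cKO libraries. Isl1, a LIM homeobox gene of striatal projection neurons and hypothalamic cells, had 21.7 and 10.98 CPM in cKO 1 and cKO 2, against 18.4 CPM in floxed, with cKO 1 above (1.17-fold, 1.01 to 1.35) and cKO 2 below (0.613-fold, 0.512 to 0.733). Six3, a homeobox gene of the anterior forebrain that acts in the striatum, had 28.2 and 16.9 CPM in cKO, against 24.3 CPM in floxed, again above in cKO 1 (1.15-fold, 1.01 to 1.31) and below in cKO 2 (0.716-fold, 0.617 to 0.829). Gsx2, which specifies progenitors of the lateral ganglionic eminence, had 4.20 and 2.48 CPM, against 3.70 CPM, and Gsx1, its paralog, 1.84 and 1.67 CPM, against 1.23 CPM. All 4 intervals of the Gsx genes held 1. Tshz1, a zinc-finger gene of olfactory bulb interneurons, had 46.2 and 38.0 CPM in cKO, against 46.4 CPM in floxed, and was below floxed beyond counting error in cKO 2 alone (0.846-fold, 0.764 to 0.936). Over the 8 genes of the group, 6 were below floxed beyond counting error in cKO 2 (all tested genes 19.9%) and 2 in cKO 1 (17.0%).

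The 12 diencephalic factors held 10 genes listed in both tables, of which Dbx1 and Bsx are described above. Lhx9, a LIM homeobox gene of the thalamus, pretectum and early pallium, had 22.03 and 24.1 CPM in cKO 1 and cKO 2, against 17.8 CPM in floxed. It was the most abundant of the group and higher in both cKO libraries, by 1.23-fold (1.06 to 1.43) and 1.39-fold (1.20 to 1.61), with a fitted log2 fold of 0.39 (SE 0.20, adjusted p = 1 by edgeR). Barhl2, a homeobox gene of the diencephalon, had 5.84 and 7.10 CPM in cKO, against 5.16 CPM in floxed, and was beyond counting error in cKO 2 alone (1.42-fold, 1.08 to 1.87).

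Fezf1, Otp and Sim1 were below floxed beyond counting error in cKO 1 and not in cKO 2. Fezf1, a zinc-finger gene of the anterior neural plate and hypothalamus, had 4.71 and 11.1 CPM in cKO 1 and cKO 2, against 9.25 CPM in floxed, with ratios of 0.507 (0.388 to 0.658) and 1.24 (1.01 to 1.53), so that cKO 2 was above floxed. Otp, which is required for neuroendocrine neurons, had 1.54 and 3.61 CPM in cKO, against 3.36 CPM in floxed, with ratios of 0.454 (0.283 to 0.716) and 1.10 (0.768 to 1.59). Its partner in that lineage, Sim1, had 6 and 12 counts in cKO, against 16 in floxed, and Nkx2-2, a target of Hedgehog signalling, had 7 and 16 counts, against 15. The ratios in cKO 1 were 0.341 for Sim1 (0.109 to 0.917) and 0.424 for Nkx2-2 (0.146 to 1.11). In cKO 2 they were 0.742 (0.320 to 1.67) and 1.05 (0.488 to 2.29). Gbx2, a factor of the thalamus and of the boundary between midbrain and hindbrain, had 21 and 20 counts in cKO, against 25 in floxed, and shares 43.5% of its exon bases with a transcript on the other strand. The hypothalamic homeobox genes Six6, with 4 and 2 counts in cKO against 1 in floxed, and Hmx2 and Hmx3 were close to absent. Hmx2 had 1 count in cKO 1 against 2 in floxed, Hmx3 1 against 4, and neither was listed in the cKO 2 table. Among 11 markers fixed for the diencephalon, Pomc and Tcf7l2 were present, while 4 were in neither table, Rax, Pmch and Avp among them. The sum over the 7 listed ones was 17.7 and 13.5 CPM in cKO and 16.6 CPM in floxed.

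Midbrain factors were at the edge of detection. Irx3, of the Iroquois homeobox family, had 20 and 16 counts in cKO 1 and cKO 2, or 1.02 and 0.861 CPM, against 11 counts (0.617 CPM) in floxed, and its intervals held 1. Irx1 had 8 and 3 counts in cKO, against 6 in floxed, Irx5 10 and 1 counts, against 4, and Pax2, a paired-box gene of the boundary between midbrain and hindbrain, 1 count in cKO 2, against 3 in floxed. Irx2 and the dorsal midbrain genes Pax3 and Pax7 were in neither table, where every listed gene with 0 in a library had at least 5 counts in the other. Lmx1b, a LIM homeobox gene of midbrain dopamine neurons, had 23 counts in cKO 1 and 1 in cKO 2, against 13 in floxed. The ratio was 0.0761 in cKO 2 (0.00179 to 0.507) and 1.61 in cKO 1 (0.781 to 3.46). Of the 10 midbrain and hindbrain markers fixed for comparison, 7 were in neither table, among them En1, Hoxa2 and Foxa2, and 0 passed the filter. The order of Lmx1b and Irx5 over the libraries, highest in cKO 1 and at 1 count in cKO 2, is that of the meningeal markers, whose part in these values was not tested.

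The libraries of the cKO group differed from each other by region. Set against cKO 1, cKO 2 was beyond counting error for 20 of 34 factors, lower for 13 (38.2%, against 21.8% of all tested genes) and higher for 7 (20.6%, against 22.1%). In the cortical group 5 of 8 factors were higher in cKO 2 than in cKO 1 and 0 were lower, led by Dmrta2 at 1.71-fold (1.56 to 1.87) and Emx1 at 1.51-fold (1.42 to 1.61). In the hem group 6 of 7 were lower and 0 higher, from Msx1 at 0.235-fold (0.172 to 0.316) to Zic2 at 0.793-fold (0.722 to 0.872). In the ventral group 6 of 8 were lower and 0 higher, with Isl1 at 0.525-fold (0.442 to 0.622) and Six3 at 0.621-fold (0.539 to 0.715). In the diencephalic group Fezf1 at 2.45-fold (1.91 to 3.16) and Otp at 2.43-fold (1.56 to 3.87) were higher, and 0 were lower. Markers of other tissues differed in the same libraries: all 11 meningeal, all 8 choroid plexus and all 6 endothelial markers were lower in cKO 2 than in cKO 1 beyond counting error. The endothelial markers summed to 273 CPM in cKO 1 and 132 CPM in cKO 2, against 222 CPM in floxed. Their part in the regional differences was not tested. The median log2 difference, cKO 2 minus cKO 1, was 0.29 for the cortical factors, -0.58 for the hem, -0.33 for the ventral telencephalon and 0.33 for the diencephalon, against 0.00 over all tested genes. For 19 of the 34 factors (55.9%, against 61.3% of all tested genes) the cKO libraries lay further from each other than their mean lay from floxed. Against floxed, the group medians in cKO 1 and cKO 2 were -0.03 and 0.38 for cortex, 0.35 and -0.09 for the hem and 0.11 and -0.45 for the ventral telencephalon, on the log2 scale, against 0.01 and 0.00 over all tested genes.

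**Figure D4:**
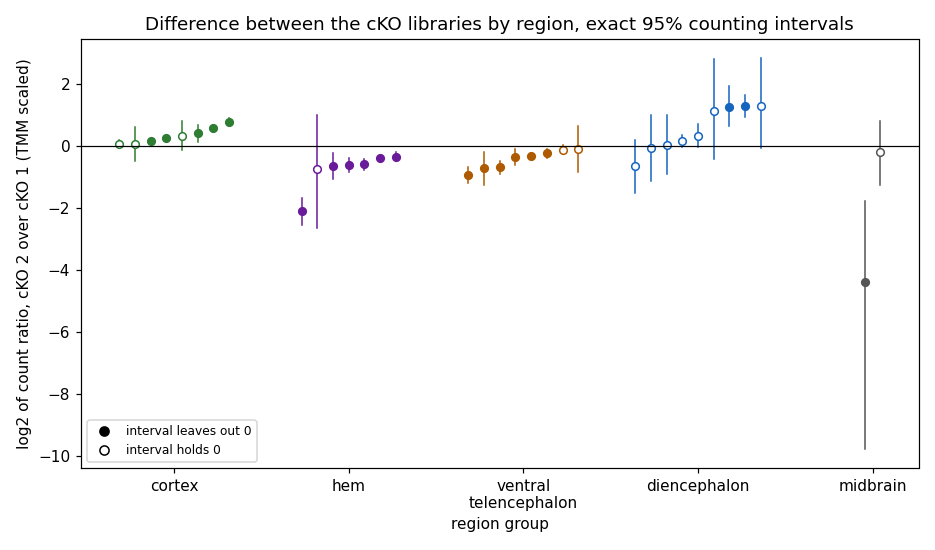
Log2 of the count ratio of cKO 2 over cKO 1 (vertical axis, TMM scaled) for the 34 factors that passed the filter, by region, with exact 95% counting intervals and filled points where the interval leaves out 0. The filled points are all above 0 for cortex (5) and diencephalon (2) and all below 0 for the hem (6), the ventral telencephalon (6) and the midbrain (Lmx1b).

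A list of 55 related patterning factors outside the 43 was measured beside them, of which 45 were in both tables. Of 38 that passed the filter, 5 were higher in both cKO libraries beyond counting error (against 6.30% of all tested genes), 4 lower in both (against 6.37%), and 4 went in opposite directions (against 6.15%). Among the higher genes were Fezf2, a determinant of subcerebral neurons, with 256 and 293 CPM in cKO, against 214 CPM in floxed, and Lhx1, a LIM homeobox gene, with 5.74 and 6.03 CPM, against 3.81 CPM. Sp8, a zinc-finger gene of the medial pallium and dorsal ganglionic eminence, had 12.4 and 10.98 CPM, against 8.46 CPM. The lower genes were Lhx6, of interneurons from the medial ganglionic eminence, with 56.1 and 62.9 CPM in cKO, against 82.9 CPM in floxed, and Pou3f2, a factor of upper-layer neurons, with 86.7 and 73.0 CPM, against 108 CPM. Dlx1 had 204 and 193 CPM, against 232 CPM, and Sp9 25.9 and 25.1 CPM, against 30.6 CPM, and both act in ventral progenitors and interneurons. None passed edgeR's test over all genes (adjusted p = 1 for each).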

How the data were processed

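Per the labels' protocols, Trizol was used to extract RNA and 2 µg of it entered an Illumina TruSeq library, a kit that does not mark strand. The authors deposited 2 tables of raw counts per gene, each setting a cKO library beside the same floxed library, whose counts were identical for all 19968 genes in both tables and were used once. Column names show the genotype group but not the sample. Bowtie2 2.2.3, TopHat2 2.0.12, HTSeq 0.6.0 and mm9 are named, per the submitters' processing notes, without their options. The positions in the tables are those of GRCm38: 38 of 40 listed factors had the identical position in GENCODE M21. The authors' normalized values are CPM, with a count of 0 set to 0.5, the authors' fold is the ratio of these with its log2, and the authors' p-values compare 1 library with 1 library by a test that no source used here names. Library totals were read from the deposited CPM.

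Genes in both tables entered edgeR 4.0.16 (R 4.3.3), whose expression filter at a minimum count of 10 left 16725 genes, with TMM factors (1.01, 0.979 and 1.01 for cKO 1, cKO 2 and floxed), quasi-likelihood test of 2 cKO against 1 floxed library, and Benjamini-Hochberg adjustment over all genes. The floxed library was assumed to vary like the cKO libraries. The SE of a fitted log2 fold is its size over the square root of F. Group medians use log2 CPM with a prior count of 2. A count of 0 allows up to 3 counts. Reads carry no molecular identifiers, so intervals cover counting error only. DESeq2 1.42.0, limma-voom 3.58.1, other scalings, no filter and each cKO library alone were alternatives. The fit was tested on simulated data. The 43 factors, their regions, the lists and the rule for naming (every factor accounted for, values for those of at least 1 CPM, and related factors beyond counting error in both cKO libraries) were chosen with earlier results of these data known. A few genes of the lists are not reported here by name. Promoters come from RefSeq (GRCm38.p6).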

Additional observations from a re-analysis of the deposited data

How the results depend on the processing

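Under total counts, RLE factors, no filter, DESeq2 and limma-voom, all 170 recomputed fitted folds of the 34 factors kept their direction and none was called. Over all genes the count of calls, 0 with edgeR, was 1 with total counts in place of TMM and 5 with DESeq2 (256 and 98 at an unadjusted p under 0.05), 0 with RLE factors, 0 without the filter and 0 with limma-voom (211, 380 and 205). The 7 factors higher and 2 lower in both cKO libraries became 11 to 13 higher and 8 to 9 lower with either cKO library read alone. Reading 1 cKO library alone drops the demand that both differ from floxed in the same direction, so these counts could not fall. Their rise is built in and is not a finding about the factors. In cKO 1 alone 11 of the 34 factors were higher and 8 lower, against 2833 and 2844 of the 16725 tested genes. In cKO 2 alone 13 of the 34 were higher and 9 lower, against 3504 and 3322 of the 16725. These comparisons are descriptions, since the factors were chosen with earlier results of these data known. By sign alone, 14 factors went in opposite directions in the cKO libraries. No share over all tested genes was computed for sign alone, so that count is not a result about the factors. Beyond counting error 5 of the 34 did so (14.7%, against 6.15% of all tested genes). The median log2 fold of the diencephalic factors, -0.33, ranges from -0.36 without cKO 2 to 0.31 without cKO 1, and was 0.01 over all its members listed in both tables without the filter. The medians of the other regions also had opposite signs in the cKO libraries, and moved by less than the SD between these libraries under every alternative run. For leaving out 1 cKO library that outcome was nearly fixed in advance, since the SD comes from the same library medians. The midbrain median, -0.16, was -0.95 without cKO 1 and 0.63 without cKO 2. It rests on the 2 midbrain factors that passed the filter, Irx3 and Lmx1b, both of few counts, and Lmx1b had 1 count in cKO 2. No test was possible without a cKO library, which leaves 1 library in each group. No paired analysis was possible because the floxed group has 1 library. Depth limits the factors of few counts: the interval of Irx3 in cKO 1, from 20 against 11 counts, ran from 0.755 to 3.82.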
